A study of Homo sapiens with 4 samples.

Results

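The genes described here encode the proteasome, the barrel-shaped protease that degrades ubiquitin-tagged proteins, together with the factors that activate, inhibit and assemble it. Members were chosen by symbol, as every gene of the expression table named PSMA, PSMB, PSMC, PSMD, PSME, PSMF or PSMG with a number, or POMP, whose mean level was above 0. Of the 41507 genes of the table, 49 matched, and 48 were above 0. PSMB11, the thymus-specific catalytic subunit, was listed at 0 in all 8 libraries and was left out.

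The study examined how inhibiting the BET bromodomain proteins with JQ1 alters gene expression in diffuse large B-cell lymphoma (DLBCL). SU-DHL-5 and Toledo, established DLBCL cell lines labelled as B lymphocytes, received JQ1 at 1 µM or its solvent DMSO, and poly(A) RNA was sequenced. The sample labels give a treatment of 6 h, and a legend of the study gives a longer one. Each line gave 1 DMSO sample and 1 JQ1 sample, 4 samples in all, and neither line was labelled as carrying any engineered allele. Each sample has 2 libraries, but the sources used here do not say what separates them, so within a line no test between conditions was possible. The lines were kept apart, no test with the lines as pairs was run, and no p-value is given. Each difference within a line lacks a replicate check.

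Levels are RPKM, the reads on a gene scaled to a length in kilobases set for the gene and to how many reads of the library were mapped. That length, called transcript length below, need not be that of the main transcript. In SU-DHL-5 DMSO library 1, PSMA1 had 130 RPKM as a gene, and its main transcript had 211 RPKM. Levels of different genes, and ratios between them, therefore depend on these lengths. The totals of mapped reads recovered from these values ran from 14617583 to 17679831 per library. All 6 defining B cell markers examined were above 1 RPKM in both lines. The 3 T cell and 3 myeloid markers each averaged below 1 RPKM over the libraries of a line. In single SU-DHL-5 libraries the T cell marker CD3E reached 1.09 RPKM and the myeloid marker LYZ 1.20 RPKM. The 3 epithelial markers were listed at 0. In Toledo DMSO the difference between both libraries went with transcript length (Spearman rho 0.62 over 9380 genes), against -0.27 to -0.05 in the other samples. Members are short, with a median length of 1586 bases against 3306.5 for all genes of at least 1 RPKM in SU-DHL-5. Each call between JQ1 and DMSO that was lost after centring on genes of like length is therefore named below. The comparisons between the lines in DMSO were not centred on length.

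The proteasome core, the 20S particle, is a stack of rings built from 7 alpha and 7 beta subunits. The beta subunits PSMB5, PSMB6 and PSMB7 carry the proteolytic sites, and the 19S cap, with its ATPases (PSMC) and non-ATPase subunits (PSMD), recognises and unfolds the substrate. Lymphoid cells and cells exposed to interferon replace the catalytic subunits with PSMB8, PSMB9 and PSMB10, and the ring-shaped activator of PSME1 and PSME2 joins the barrel, which alters the peptides offered for antigen presentation by MHC class I. The 48 members comprised 7 alpha, 7 constitutive beta, 5 immunoproteasome, 6 ATPase and 14 non-ATPase genes, 3 other activators or inhibitors (PSME3, PSME4 and PSMF1), 5 assembly chaperones (PSMG1 to PSMG4 and POMP) and the testis-enriched alpha subunit PSMA8. The non-ATPase group follows the symbol PSMD, so it also holds PSMD5 and PSMD10, which are chaperones of cap assembly.

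JQ1-treated cells of both lines had lower RPKM of 4 members, namely the immunoproteasome genes PSMB8, PSMB10 and PSME2 and the ATPase gene PSMC3. A gene counts here as called when the mean of its JQ1 libraries lay beyond 1.5-fold of the DMSO mean and both JQ1 libraries lay on the same side of both DMSO libraries. Of the members with at least 1 RPKM in the line, 4 of 47 were called lower in SU-DHL-5, where 12.1% of all genes were, and 7 of 48 in Toledo, where 15.8% of all genes were. No member was called higher in either line, against 8.72% of the genes of SU-DHL-5 and 6.68% of those of Toledo. The share of members called lower was thus not above the background in either line. In such bulk RNA, fewer cells holding an mRNA and less of it per cell cannot be told apart. RPKM is relative to the mapped reads of a library, so a change in total RNA per cell would not show.

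**Figure D1:**
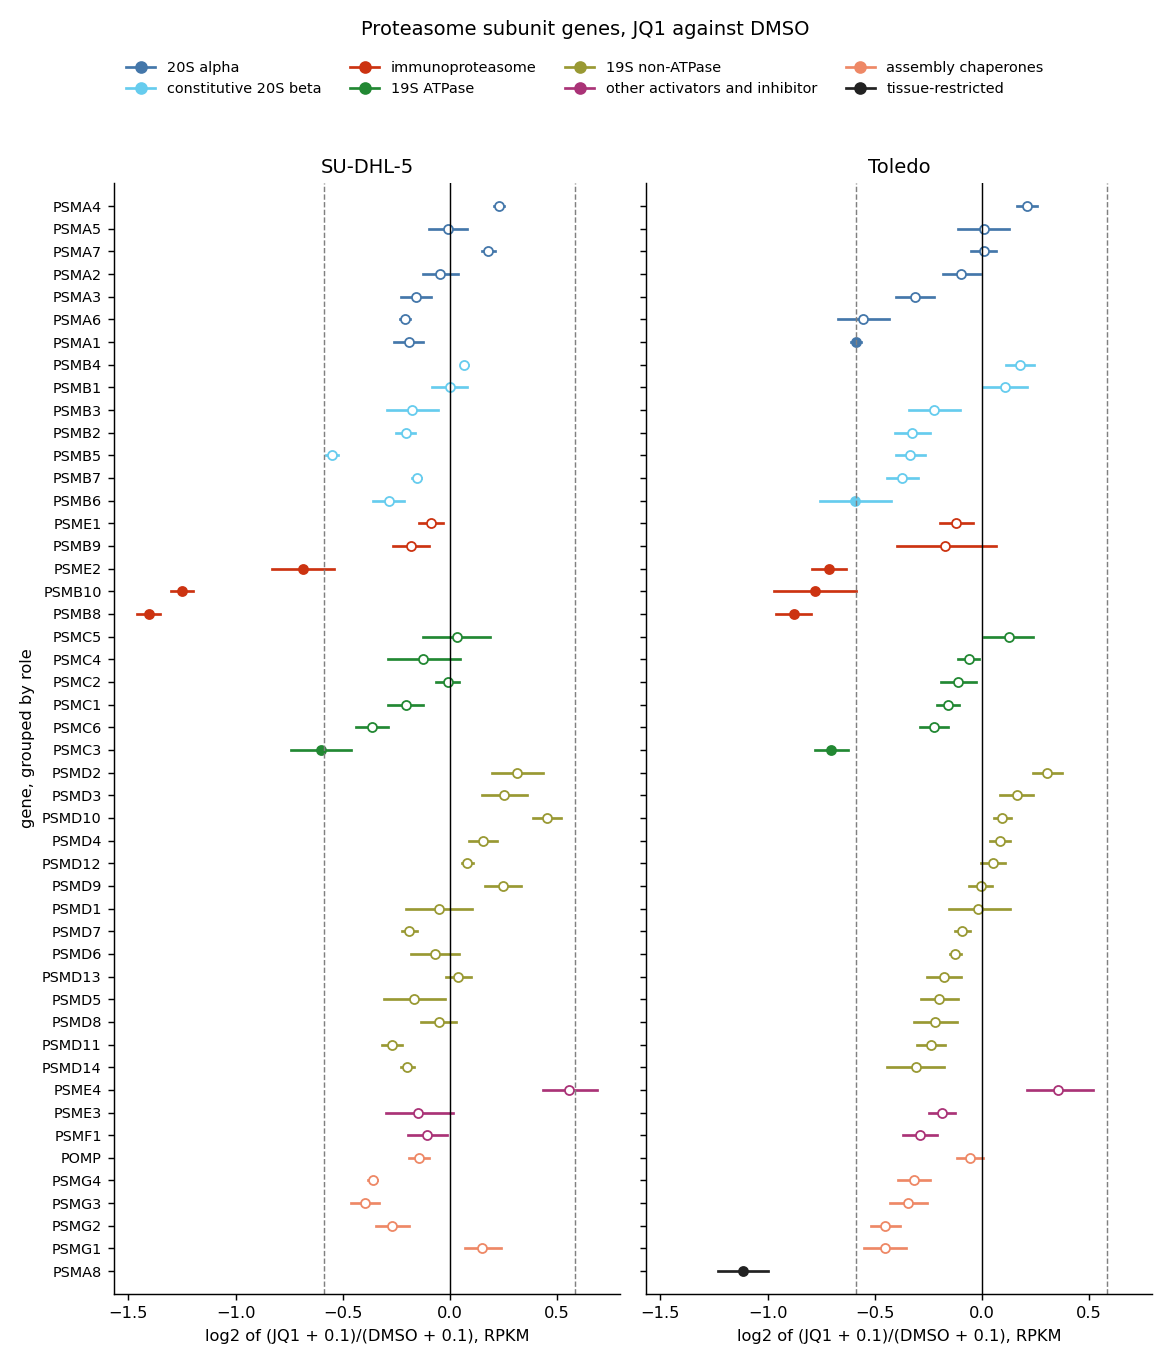
Difference of each proteasome gene between JQ1 and DMSO, as log2 of RPKM plus 0.1, in SU-DHL-5 (left) and Toledo (right). Points are ratios of the mean of both libraries, filled where called, lines span the 4 pairings of a JQ1 with a DMSO library, dashed lines mark 1.5-fold, and colours give the role. Filled points are PSMB8, PSMB10, PSME2 and PSMC3 in both panels, joined in Toledo by PSMA1, PSMB6 and PSMA8.

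The interferon-inducible catalytic subunit PSMB8 (chr6:32840717-32844935 in GRCh38, the build of the submitters' processing notes) showed the largest difference of any member in SU-DHL-5. The DMSO libraries of SU-DHL-5 read 107 and 113 RPKM, and its JQ1 libraries read 41.1 and 42.1 RPKM. The DMSO libraries of Toledo read 31.0 and 30.7 RPKM, and its JQ1 libraries read 17.6 and 15.9 RPKM. The libraries did not overlap in either line, and the DMSO level was 2.65-fold the JQ1 level in SU-DHL-5 and 1.84-fold in Toledo. As log2 ratios these were -1.41 (95% exact binomial interval of the reads -1.48 to -1.34) and -0.88 (-0.99 to -0.77). Such intervals cover counting error only, not the variation between cultures.

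PSMB10 (chr16:67934504-67936877), the inducible counterpart of PSMB7, showed the next largest difference in SU-DHL-5. SU-DHL-5 had 105 and 108 RPKM in DMSO against 43.8 and 45.6 RPKM with JQ1. The Toledo libraries gave 81.6 and 72.5 RPKM in DMSO and 41.6 and 48.2 RPKM with JQ1. Again no library overlapped, with log2 ratios of -1.25 (-1.35 to -1.16) and -0.78 (-0.88 to -0.69). After JQ1 the lines had almost the same mean PSMB10 level, 44.7 RPKM in SU-DHL-5 and 44.9 RPKM in Toledo.

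PSME2 (chr14:24143365-24147316), the beta subunit of the interferon-inducible activator, was lower by nearly the same amount in both lines. Its SU-DHL-5 libraries held 218 and 195 RPKM in DMSO and 122 and 134 RPKM with JQ1. Its Toledo libraries held 129 and 123 RPKM in DMSO and 74.6 and 79.5 RPKM with JQ1. The log2 ratios were -0.69 (-0.73 to -0.64) and -0.71 (-0.77 to -0.66). With library 2 alone the SU-DHL-5 value was -0.54, under 1.5-fold, and centring on genes of like transcript length left -0.58 in Toledo, just under the same limit.

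The remaining immunoproteasome genes differed little. PSMB9 (chr6:32854161-32859851), the inducible counterpart of PSMB6, had 132 and 125 RPKM in DMSO and 109.6 and 116 RPKM with JQ1 among the SU-DHL-5 libraries, which gave a log2 ratio of -0.18. In Toledo its 54.5 and 43.4 RPKM in DMSO overlapped the 41.4 and 45.4 RPKM with JQ1 (log2 ratio -0.17), and library 2 alone gave 0.07. PSME1 (chr14:24136158-24138967), the alpha subunit of the activator, had 295 and 287 RPKM in DMSO against 281 and 268 RPKM with JQ1 in SU-DHL-5. In Toledo PSME1 had 271 and 250.1 RPKM in DMSO against 243 and 236 RPKM with JQ1. Its log2 ratios were -0.09 and -0.12, and the latter became 0.02 after centring on transcript length. The 5 immunoproteasome genes thus split into 3 that were called in both lines and 2 that were called in neither.

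**Figure D2:**
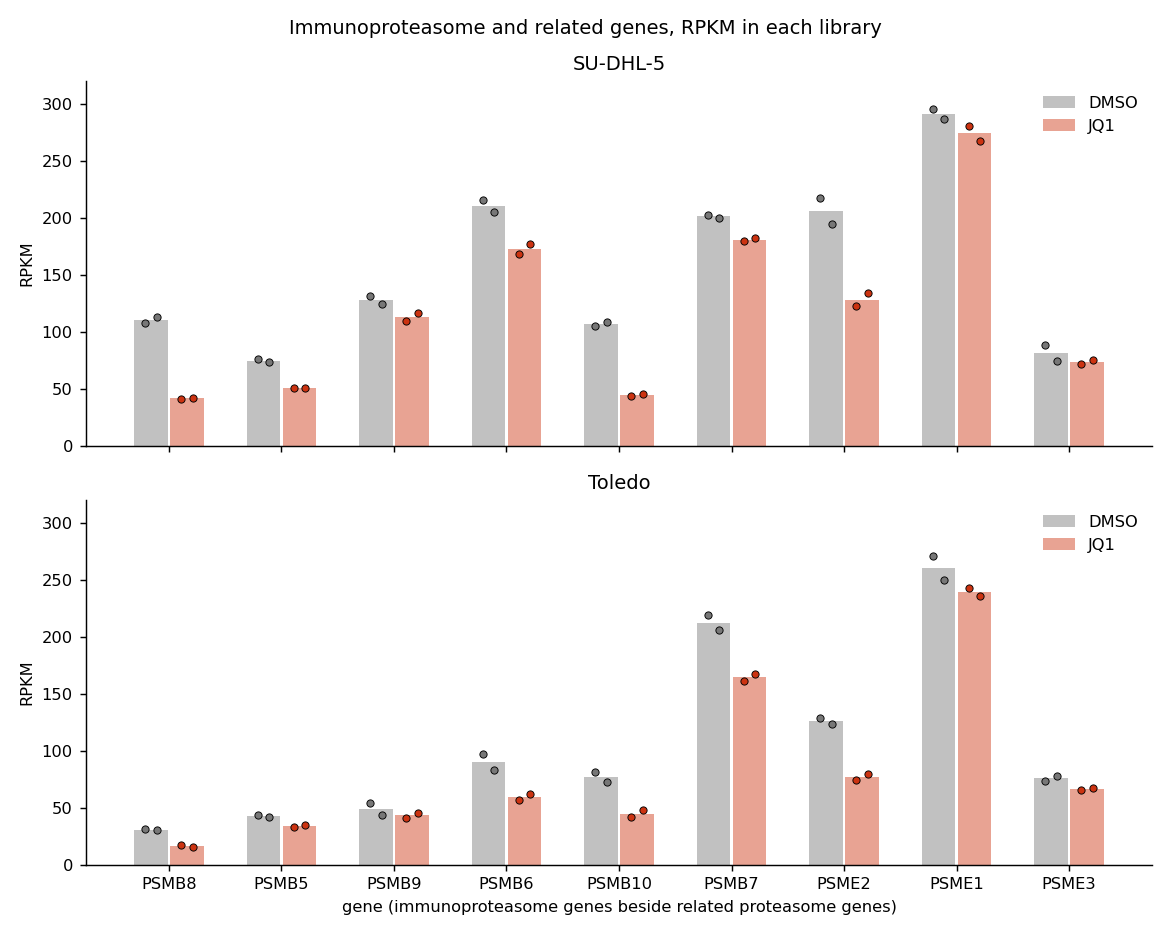
Level of the immunoproteasome genes and of related proteasome genes in RPKM, on axes from 0, in SU-DHL-5 (top) and Toledo (bottom). Bars are the mean of both libraries of a sample, and points are the libraries. PSMB8, PSMB10 and PSME2 are lower with JQ1 in both lines, while PSMB9 and PSME1 differ little.

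The split ran between members that lie close together. PSMB8 and PSMB9 lie 9225 bases apart on chromosome 6, in the MHC class II region, and their log2 ratios were -1.41 and -0.18 in SU-DHL-5, beside -0.88 and -0.17 in Toledo. PSME1 and PSME2 lie 4397 bases apart on chromosome 14, and theirs were -0.09 and -0.69 in SU-DHL-5, beside -0.12 and -0.71 in Toledo. The 250 bases before the transcription start of these 5 genes are shown, since members so close together differed. They come from RefSeq on GRCh38.p14, each read 5′ to 3′ on the gene's own strand. Capitals mark every match, on either strand, to the core of the interferon-stimulated response element (GAAANNGAAA), the gamma-activated site (TTCNNNGAA), an NF-kB site (GGGNNTTTCC), the E-box (CACGTG), the CCAAT box, the core of the antioxidant response element (TGACNNNGC) or an ETS site (CCGGAAG). For PSMB8, the start shown lies next to the 5′ end of the transcript that carried 93.1% of its transcript RPKM in SU-DHL-5 DMSO and 92.5% in Toledo DMSO.
PSMB8, chr6:32844048-32844297, minus strand: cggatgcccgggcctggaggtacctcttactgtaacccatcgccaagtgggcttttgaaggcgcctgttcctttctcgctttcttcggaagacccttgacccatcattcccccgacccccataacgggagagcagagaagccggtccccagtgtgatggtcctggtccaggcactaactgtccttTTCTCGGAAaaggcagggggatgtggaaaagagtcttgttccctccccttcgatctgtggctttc
PSMB9, chr6:32853942-32854191, plus strand: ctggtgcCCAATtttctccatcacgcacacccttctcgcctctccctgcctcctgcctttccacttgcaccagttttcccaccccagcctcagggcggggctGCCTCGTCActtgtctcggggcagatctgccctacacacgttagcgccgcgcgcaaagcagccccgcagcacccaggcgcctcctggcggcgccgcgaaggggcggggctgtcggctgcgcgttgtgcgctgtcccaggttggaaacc
PSMB10, chr16:67936851-67937100, minus strand: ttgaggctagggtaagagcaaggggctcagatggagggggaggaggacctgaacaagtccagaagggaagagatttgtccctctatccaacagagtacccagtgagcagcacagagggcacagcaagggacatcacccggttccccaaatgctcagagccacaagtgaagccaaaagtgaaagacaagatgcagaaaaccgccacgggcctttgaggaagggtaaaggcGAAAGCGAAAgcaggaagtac
PSME1, chr14:24135944-24136193, plus strand: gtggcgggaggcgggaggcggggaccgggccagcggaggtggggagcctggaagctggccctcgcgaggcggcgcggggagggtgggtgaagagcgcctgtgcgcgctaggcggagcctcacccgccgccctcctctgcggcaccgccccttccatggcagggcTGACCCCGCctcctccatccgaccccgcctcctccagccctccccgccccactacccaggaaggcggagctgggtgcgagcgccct
PSME2, chr14:24146611-24146860, minus strand: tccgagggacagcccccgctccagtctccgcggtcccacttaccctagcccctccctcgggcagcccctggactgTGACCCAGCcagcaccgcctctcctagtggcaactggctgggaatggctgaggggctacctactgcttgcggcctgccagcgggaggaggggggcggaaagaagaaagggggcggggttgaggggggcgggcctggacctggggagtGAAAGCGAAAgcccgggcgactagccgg

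In PSMB10 the capitals 21 bases before the start, and in PSME2 those 28 bases before it, are the interferon-stimulated response element core. In PSMB8 the capitals 65 bases before the start are a gamma-activated site. PSMB9 held a CCAAT box and an antioxidant response element core, and PSME1 held the latter alone. PSME2 also held an antioxidant response element core, and none of the matches in these windows overlapped another. RefSeq promoters numbered 51 and covered 42 of the 48 members, the others being PSMA7, PSMB1, PSMB6, PSMB7, PSMD4 and PSMG3. The interferon-stimulated core was in 5 of these 51 promoters (PSMA4, PSMB10, PSMB4, PSME2 and PSMG4) and in 3.02% of 35116 promoters of the same length, and the gamma-activated site was in 7 of 51 and 6.57%. These are matches of letters, and what the motifs do here was not tested. Among members with the former motif, PSMB10, PSME2 and PSMG4 were lower with JQ1 in both lines with libraries apart. PSMA4 and PSMB4 were higher in both. Among those with the latter, PSMB5 and PSMB8 were lower in both lines in that way and PSMD3 was higher in both. PSMA2, PSMA8, PSMC4 and PSME3 were lower with libraries apart in Toledo only. Of the 51 promoters, 18 held a CCAAT box, 13 the antioxidant core, 12 an ETS site, 3 an E-box and 1 an NF-kB site, beside 32%, 10.9%, 8.52%, 6.34% and 1.73% of all these promoters. None of the 5 printed windows held an E-box, an NF-kB site or an ETS site, which says nothing of binding elsewhere.

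The constitutive catalytic subunits were also somewhat lower with JQ1, by amounts that differed from their inducible counterparts. PSMB5, the chymotrypsin-like subunit that bortezomib binds, had 75.7 and 73.2 RPKM in SU-DHL-5 DMSO, next to 51.0 and 50.8 RPKM with JQ1. In Toledo PSMB5 was at 43.6 and 41.8 RPKM in DMSO and 33.0 and 34.7 RPKM with JQ1. The libraries lay apart in both lines, and the log2 ratios of -0.55 and -0.33 stayed within 1.5-fold.

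PSMB6, the caspase-like subunit, was called in Toledo, where it went from 96.8 and 83.3 RPKM in DMSO to 57.3 and 62.0 RPKM with JQ1, a log2 ratio of -0.59. That call was narrow, since the DMSO mean was 1.51-fold the JQ1 mean and the call was lost with library 2 alone (-0.42), after scaling by the median ratio of all genes and after centring on transcript length. SU-DHL-5 had 215 and 205 RPKM of PSMB6 in DMSO and 168 and 177 RPKM with JQ1, so that the log2 ratio was -0.29. PSMB7, the trypsin-like subunit, had log2 ratios of -0.15 and -0.37, with its libraries apart in both lines.

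Since both partners of each pair had negative log2 ratios, the ratio between them shows how the mRNA mixture of the catalytic core differed. PSMB8 over PSMB5 by gene RPKM was 1.42 and 1.54 in the DMSO libraries of SU-DHL-5 and 0.805 and 0.828 in its JQ1 libraries. In Toledo the same ratio was 0.712 and 0.734 in DMSO and 0.533 and 0.458 with JQ1. Which gene stood higher depended on whether gene or transcript values were used. With JQ1 in SU-DHL-5 the main PSMB8 transcript had 57.6 and 56.9 RPKM, and the main PSMB5 transcript 55.9 and 55.2 RPKM. The log2 change of the ratio in SU-DHL-5 was -0.86 with gene values and with summed transcripts. PSMB10 over PSMB7 by sample means was 0.529 in DMSO and 0.247 with JQ1 for SU-DHL-5, while Toledo gave 0.363 and 0.273.

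PSMB9 over PSMB6 went the other way, being 0.610 in DMSO and 0.656 with JQ1 for SU-DHL-5, while Toledo gave 0.544 and 0.727, with every JQ1 library above every DMSO library of its line. PSME2 over PSME1, whose proteins share a ring, was 0.708 in DMSO and 0.467 with JQ1 for SU-DHL-5, while Toledo gave 0.485 and 0.321. These are gene values, and which partner stood higher depended on that. In SU-DHL-5 DMSO the main PSME2 transcript had 442 and 395 RPKM, and the main PSME1 transcript 331 and 316 RPKM. With JQ1 the former had 249 and 274 RPKM and the latter 310 and 297 RPKM. The shares that follow rest on gene values as well. Summed over the 3 catalytic pairs, the inducible genes made up 41.0% and 42.0% of catalytic-subunit RPKM in the DMSO libraries of SU-DHL-5 and 32.8% and 33.3% with JQ1. In Toledo the share was 31.7% and 30.7% in DMSO and 28.6% and 29.3% with JQ1. By sample means the share was 33.0% in JQ1-treated SU-DHL-5 cells and 31.2% in DMSO-treated Toledo cells.

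**Figure D3:**
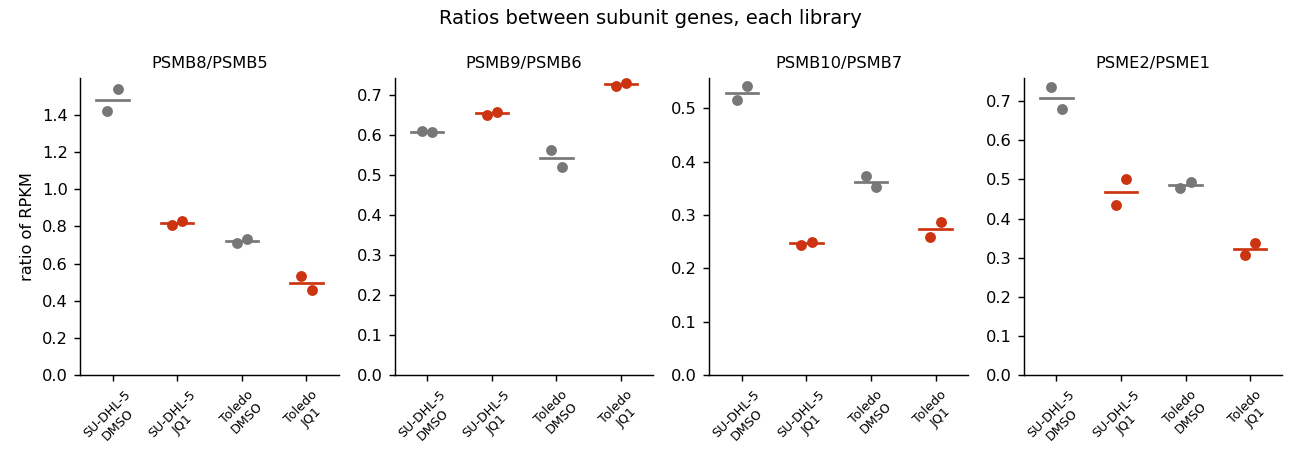
Ratios of RPKM between proteasome genes in each library, on axes from 0, for SU-DHL-5 and Toledo in DMSO (grey) and JQ1 (red). Points are libraries and lines are ratios of the sample means. PSMB8/PSMB5, PSMB10/PSMB7 and PSME2/PSME1 are lower with JQ1 in both lines, and PSMB9/PSMB6 is higher.

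Among the other subunits of the 20S core, most genes lay close to their DMSO level. The 7 alpha genes had median log2 ratios of -0.04 in SU-DHL-5, beside -0.10 in Toledo, and the Toledo median turned to 0.04 after centring on transcript length. PSMA1 was the only alpha gene called, in Toledo, with 260.2 and 259 RPKM in DMSO and 176 and 170.2 RPKM with JQ1. Its log2 ratio of -0.59 (-0.62 to -0.55) sat on the limit, and the call was lost with library 1 alone, with a pseudocount of 1 RPKM, after scaling by the median ratio and after centring on transcript length. PSMA6 was not called in Toledo, its log2 ratio of -0.55 staying just within 1.5-fold. PSMA4, in contrast, was higher with JQ1 in both lines, with log2 ratios of 0.23 and 0.21. Its SU-DHL-5 libraries read 276 and 277 RPKM in DMSO and 319.98 and 328 RPKM with JQ1, and those of Toledo 207 and 202 RPKM, then 241 and 232 RPKM.

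PSMB4, a non-catalytic beta subunit, was the most abundant member in every library. SU-DHL-5 held 524 and 516 RPKM in DMSO and 547 and 543 RPKM with JQ1, and Toledo held 574 and 531 RPKM, then 621 and 630.1 RPKM. Its log2 ratios were 0.07 and 0.18. The median over the 7 constitutive beta genes was -0.17 in SU-DHL-5, beside -0.32 in Toledo, with 5 of 7 lower and libraries apart in each line, where 38% of the genes of SU-DHL-5 and 42.9% of those of Toledo were.

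The 19S ATPase genes held a single member that was called, PSMC3 (chr11:47418769-47426473). SU-DHL-5 libraries had 159.5 and 145 RPKM in DMSO next to 95.5 and 105 RPKM with JQ1. Toledo libraries had 202 and 196 RPKM in DMSO and 117 and 127 RPKM with JQ1. PSMC3 was the most abundant ATPase gene in DMSO in both lines, and PSMC2 was the least abundant, at 44.9 and 44.0 RPKM in SU-DHL-5 DMSO. The log2 ratios of PSMC3 were -0.60 (-0.66 to -0.55) and -0.70 (-0.75 to -0.66). The SU-DHL-5 call was lost with library 2 alone and the call in each line after centring on transcript length, which left -0.55 and -0.57. The 6 ATPase genes had medians of -0.17 and -0.14, and PSMC6 had the next lowest log2 ratio in both lines, at -0.36 and -0.22.

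None of the 14 non-ATPase genes was called in either line, and their medians were -0.01 in SU-DHL-5, beside -0.05 in Toledo. PSMD2, a scaffold of the 19S base, was higher with JQ1 in both lines, with log2 ratios of 0.31 and 0.31. SU-DHL-5 had 145 and 129 RPKM in DMSO next to 166 and 174 RPKM, and Toledo had 101 and 95.8 RPKM next to 119 and 124 RPKM. PSMD10, also known as gankyrin, a chaperone of cap assembly, had 34.2 and 35.7 RPKM in SU-DHL-5 DMSO next to 46.8 and 49.0 RPKM with JQ1. Its log2 ratio was 0.45 there, against 0.10 in Toledo. PSMD14, the deubiquitinase of the cap, had log2 ratios of -0.20 and -0.31. PSMD5, another assembly chaperone, was the least abundant 19S gene, between 5.85 and 7.52 RPKM over all libraries.

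PSME4, which encodes the activator PA200 of the nuclear proteasome, had the highest log2 ratio of all members in both lines. SU-DHL-5 had 18.0 and 15.4 RPKM in DMSO next to 24.4 and 24.8 RPKM with JQ1, a log2 ratio of 0.56 (0.51 to 0.62). Toledo had 8.86 and 10.8 RPKM next to 12.5 and 12.7 RPKM, a log2 ratio of 0.36 (0.29 to 0.45). Its length of 7160 bases was long for a member, and centring on transcript length brought both values to 0.37. After that centring PSMD10 stood higher in SU-DHL-5, at 0.51, and PSMD2 in Toledo, at 0.39. PSME3, the nuclear activator that is not induced by interferon, had log2 ratios of -0.15 and -0.19, and PSMF1, an inhibitor of the core, had -0.11 and -0.29.

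The 5 assembly chaperone genes had medians of -0.27 in SU-DHL-5, beside -0.34 in Toledo, and none was called. In each line 4 of the 5 were lower with libraries apart, PSMG1 being higher in SU-DHL-5 and POMP overlapping in Toledo. By that rule 42.9% of all Toledo genes were lower, while the SU-DHL-5 share was 38%. PSMG2, PSMG3 and PSMG4, which guide the building of the alpha ring, gave -0.27, -0.39 and -0.36 in SU-DHL-5 on the log2 scale, beside -0.45, -0.34 and -0.32 in Toledo. POMP, which promotes the joining of beta subunits and the assembly of the immunoproteasome in particular, had 147 and 155 RPKM in SU-DHL-5 DMSO next to 136 and 138 RPKM with JQ1. In Toledo POMP was at 119 and 111 RPKM in DMSO and overlapped its JQ1 values of 109.6 and 111 RPKM, a log2 ratio of -0.06. PSMG1, the partner of PSMG2, was the only member whose libraries lay apart in opposite directions. SU-DHL-5 had 57.1 and 52.0 RPKM in DMSO next to 59.97 and 61.3 RPKM with JQ1, while Toledo had 73.3 and 68.3 RPKM next to 53.4 and 49.95 RPKM.

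PSMA8, an alpha subunit known from spermatogenesis and closely related to PSMA7, was detected mainly in Toledo. The recovered reads were 0 and 1 in the SU-DHL-5 DMSO libraries and 0 and 2 in its JQ1 libraries, too few for a ratio between them to be read. Toledo had 342 and 340 reads in DMSO and 156 and 142 with JQ1, that is 10.2 and 11.1 RPKM against 5.08 and 4.66 RPKM. The log2 ratio in Toledo was -1.12 (-1.33 to -0.93), lower than that of PSMB8 in the same line. Between the lines in DMSO the log2 ratio of PSMA8 was 6.54 with the pseudocount, and the interval of its reads ran from 6.88 to 14.67. How the authors shared out reads that match closely related genes is not given in the sources used here, so a part of these reads coming from PSMA7 was not tested. PSMA7 itself was 1.12-fold higher in Toledo in DMSO, where SU-DHL-5 had 288 and 291 RPKM and Toledo 333 and 319 RPKM.

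Over all members the median was -0.14 for SU-DHL-5 on the log2 scale and -0.18 for Toledo, beside 0.02 and -0.06 over all genes of at least 1 RPKM. With no fold required, 25 of 47 members were lower with libraries apart in SU-DHL-5 and 11 were higher, where 38% and 42.3% of all genes were. In Toledo 32 of 48 were lower and 9 higher, beside 42.9% and 29.7% of all genes. Without the immunoproteasome genes and PSMA8, the median of the other 42 was -0.11 and -0.17. For scale, 73 mitochondrial ribosomal protein genes had medians of -0.14 and -0.31, and 79 cytosolic ribosomal protein genes had -0.01 and 0.15. Centring on transcript length brought the medians of all members to -0.08 and -0.07.

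**Figure D4:**
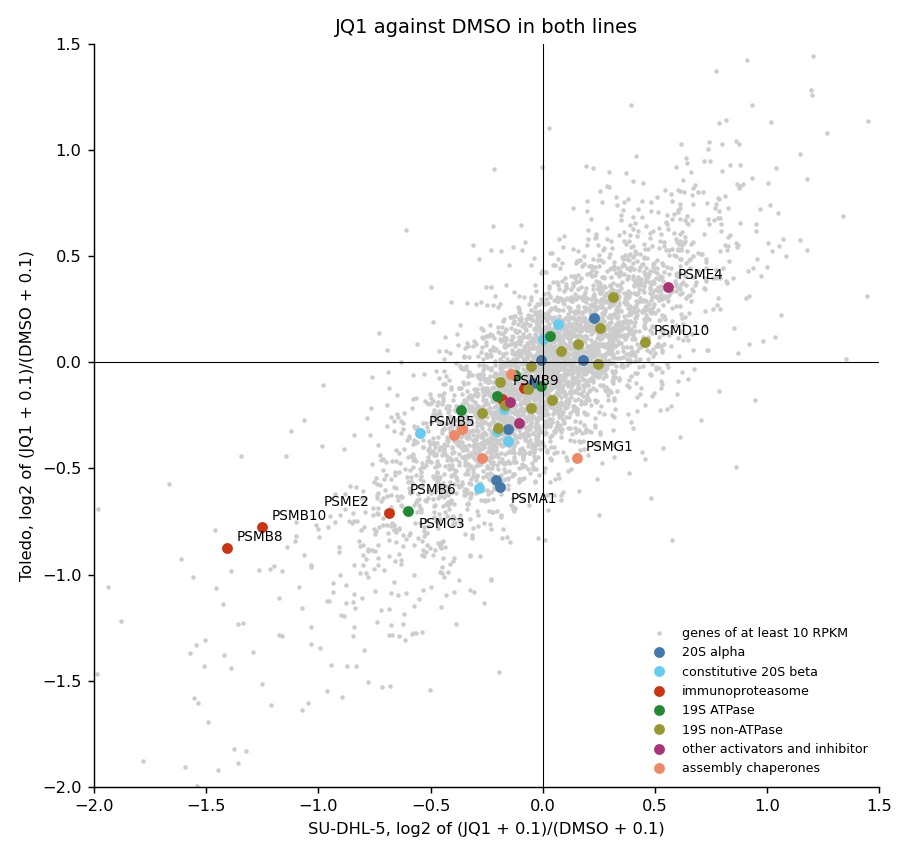
Log2 ratio of JQ1 over DMSO (RPKM plus 0.1) in SU-DHL-5 (horizontal) and Toledo (vertical) for the 47 proteasome genes of at least 1 RPKM in both lines, coloured by role, over the 3925 genes of at least 10 RPKM in both (grey), of which 33 lie outside the frame. PSMB8 and PSMB10 lie at the lower left and PSMG1 alone in the lower right with libraries apart in both lines.

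The members' ratios ran in a similar order in both lines. Across the 47 members tested in both, Pearson's r was 0.83 and Spearman's rho 0.84, and without the immunoproteasome genes 0.77 and 0.81 over 42, beside 0.81 and 0.77 over 3925 genes of at least 10 RPKM. These describe genes, which are not independent replicates and share their libraries. The 4 members called lower in both lines compare with 7.39% of all genes, and no member was called higher in both, against 3.65% of all genes. With no fold required, 23 members were lower in both lines with libraries apart, 7 were higher in both and 1 was opposite, beside 28.9% of all genes lower and 24.4% higher.

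In DMSO the lines already differed in their immunoproteasome. All 5 of its genes were lower in Toledo than in SU-DHL-5 with libraries apart, and PSMB8, PSMB9 and PSME2 were called, at 3.56-fold, 2.62-fold and 1.63-fold lower levels. Of all genes, 42.3% were lower in Toledo with libraries apart and 23.7% were called lower. PSMB10 and PSME1 had log2 ratios of -0.47 and -0.16 between the lines. The median of the 5 was -0.71, and PSMB9 differed between the lines by more than it differed with JQ1 in either. With 1 sample of each line, the line and its culture cannot be told apart. The comparisons between the lines were not centred on transcript length, although the libraries of Toledo DMSO differed with it.

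Over all 48 members the median log2 ratio of Toledo to SU-DHL-5 was -0.30, beside -0.01 for all genes, with 12 called lower and 4 higher, against 23.7% and 25.5% of all genes. With no fold required, 30 members were lower in Toledo and 14 higher, beside 42.3% and 42.2% of all genes. After PSMB8, the lowest was the chaperone gene PSMG4, for which SU-DHL-5 had 16.3 and 16.2 RPKM and Toledo 4.67 and 4.37 RPKM. PSMB6 was also called, at 2.33-fold less in Toledo, as was PSMD9, at 2.21-fold less. The 4 called higher in Toledo were PSMA8, PSMD10, PSMA1 and PSMD11. Genes compared between the lines needed a mean of at least 1 RPKM over both DMSO samples. PSMA8 met that limit through Toledo alone, at 10.7 RPKM against 0.016 RPKM in SU-DHL-5, so its call carries little weight. PSMD10 was 2.01-fold and PSMA1 1.95-fold higher. Over the 7 alpha genes the median was -0.17, with 4 lower and 2 higher in Toledo with libraries apart.

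**Figure D5:**
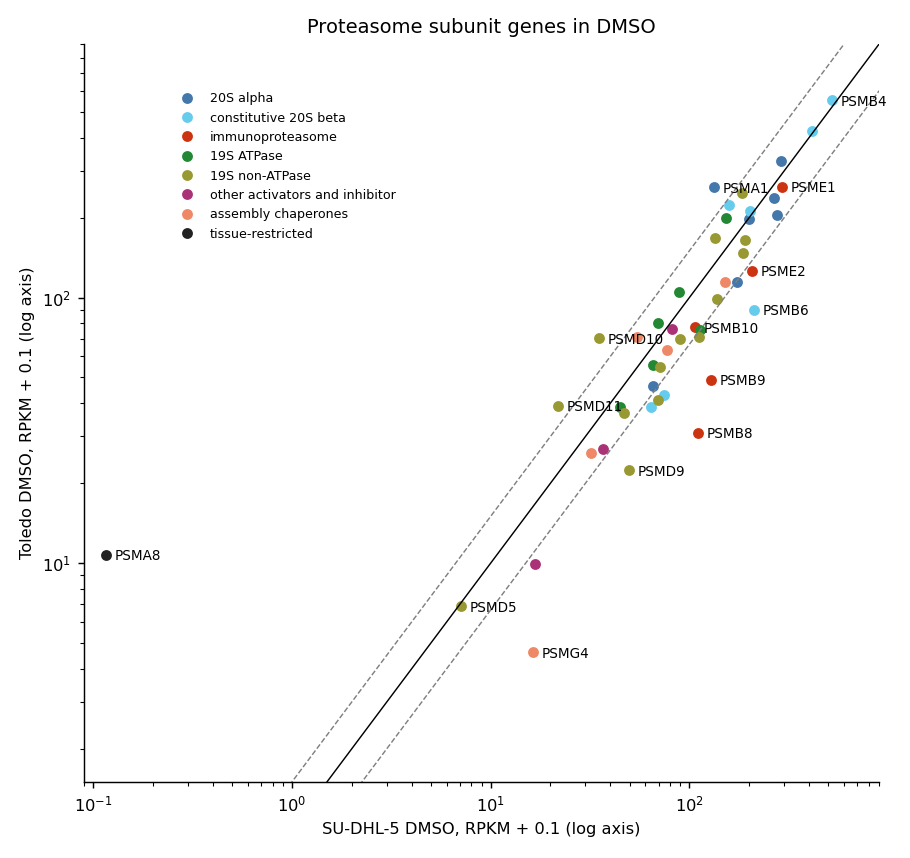
Level of each proteasome gene in DMSO, RPKM plus 0.1 on log axes, in SU-DHL-5 (horizontal) and Toledo (vertical), coloured by role. Points are means of both libraries, the solid line marks equal levels and the dashed lines 1.5-fold. The 5 immunoproteasome genes lie below the solid line, PSMA8 lies far to its left, and PSMB4 is at the top right.

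Of 28 other genes of the ubiquitin-proteasome pathway, comprising receptors, shuttles, transcriptional control, ubiquitin genes and ligases, 1 was called lower and 1 higher in SU-DHL-5, where 12.1% and 8.72% of all genes were. In Toledo 2 were called lower and none higher, where 15.8% and 6.68% of all genes were. The medians of these pathway genes were 0.01 and 0.00. KIAA0368, also called ECPAS, an adaptor that binds the assembled proteasome, was called lower in both lines. SU-DHL-5 had 13.9 and 12.3 RPKM in DMSO next to 8.75 and 8.46 RPKM with JQ1, and Toledo had 8.33 and 11.1 RPKM next to 5.22 and 5.20 RPKM. With library 2 alone, or a pseudocount of 1 RPKM, the SU-DHL-5 call was lost. UBQLN2, a shuttle that carries ubiquitinated proteins, was called higher in SU-DHL-5, its log2 ratio being 0.69 against 0.05 in Toledo. ZFAND2A, a stress-induced proteasome-binding protein, was called lower in Toledo, its log2 ratio being -0.83 against -0.24 in SU-DHL-5.

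NFE2L1, the transcription factor that raises proteasome gene expression when proteasome activity is short, had log2 ratios of -0.35 and -0.27. VCP, the unfoldase that extracts it from the endoplasmic reticulum, and NGLY1, the enzyme that deglycosylates it, were higher with libraries apart in both lines without being called. Their log2 ratios were 0.49 and 0.43 for VCP and 0.40 and 0.55 for NGLY1. Of all genes, 24.4% were higher and 28.9% lower in both lines with libraries apart. Among the other genes grouped with them, DDI2 (0.13 and 0.22) and NFE2L2 (0.01 and -0.10) overlapped in both lines. AKIRIN2 went opposite ways, at -0.24 in SU-DHL-5 and 0.12 in Toledo. NFE2L1, VCP and NGLY1 were named after their values were seen.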

How the data were processed

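Poly(A) RNA libraries were made with a stranded kit. The deposited gene and transcript tables hold RPKM values that the authors computed. The submitters' processing notes name CASAVA 2.0 and GRCh38 (hg38), while the aligner, the counting, its use of strand and the annotation are not given in the sources used here. The 42 pseudogene and 3 antisense symbols of members are among 21725 genes without a listed transcript, all at 0, so how their reads were treated cannot be read from the tables.

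Gene RPKM was averaged over the 2 libraries of a sample, and log2 ratios used a pseudocount of 0.1 RPKM, with genes of at least 1 RPKM in a line. Between the lines, genes needed a mean of at least 1 RPKM over both DMSO samples. Called genes passed 1.5-fold with libraries apart. With 1 sample per line and condition the lines were kept apart and no test was run, also none with the lines as pairs. Mapped totals and transcript lengths were recovered as the whole numbers that turn RPKM into whole reads (within 0.02) for 14942 of 14944 genes above 0, and gave exact (Clopper-Pearson) 95% intervals, which cover counting error only. The recovery and the calls were also run on simulated counts that held counting error alone. That run did not cover variation between libraries and did not compare recovered lengths with the true ones. Genes were named by rule: immunoproteasome and constitutive catalytic genes, POMP, called members, the 3 highest and 3 lowest log2 ratios in each line, the 3 members most different between the lines in each direction, and called pathway genes; others stand as examples of their group, chosen after their values were seen. The members, lists and rules were chosen with earlier results of these data known. Alternatives changed the pseudocount, scaling, library, table, length centring (10 classes), minimum level and fold. Tables were handled in Python 3.11.15 with pandas 2.3.3 and numpy 2.4.6, intervals came from scipy 1.17.1, and plots were drawn with matplotlib 3.10.9.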

Additional observations from a re-analysis of the deposited data

Results flagged for a closer look

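PSMG1, an assembly chaperone gene, moved in opposite directions in the lines, with every JQ1 library above every DMSO library in SU-DHL-5 and below it in Toledo. The log2 ratio in SU-DHL-5 exceeded that in Toledo by 0.61, from 0.15 and -0.45. This difference between the lines was not tested, since each line has 1 sample per condition, and in neither line did PSMG1 pass 1.5-fold.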

How the results depend on the processing

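The labels give no replicate numbers. The lines were kept apart, and a fit with the 2 lines as pairs was not run. Of 487 alternative values for 72 results, 343 moved by no more than the spread between library pairings (counts by no more than 1.5 times), 144 moved further and none reversed a called value, while 13 uncalled values took the other sign. The calls of PSMB8 and PSMB10 held in both lines with each other pseudocount, scaling, library, table and length centring. The causes of the shifts were not tested.

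The counts of members depended most on the fold. At the lower alternative fold limit 8 members were lower and 2 higher in SU-DHL-5, while Toledo had 14 lower and 1 higher. At 2-fold, SU-DHL-5 had 2 lower and Toledo 1. The shares of all genes called at these other fold limits were not computed, so these counts have no background. Whether or not libraries lay apart, 54.8% of all genes in SU-DHL-5 stayed within the lower limit, beside 78.7% of members. For Toledo these shares were 53.9% and 68.8%. With no fold 25 were lower and 11 higher in SU-DHL-5, while Toledo had 32 and 9. With library 2 alone, SU-DHL-5 had 2 lower and 1 higher (PSME4). With length centring, 3 were lower in Toledo. Pathway genes called lower in SU-DHL-5 numbered 0 with library 2 alone or a pseudocount of 1 RPKM, and those called higher numbered 2 with library 2 alone. In Toledo 1 pathway gene was higher with library 1 alone, with scaling and with length centring.

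Scaling by the median ratio (0.02 on the log2 scale in SU-DHL-5, -0.07 in Toledo) gave Toledo medians of -0.12 for members, -0.26 for constitutive beta, -0.070 for ATPase, 0.011 for non-ATPase, -0.12 for other activators, -0.28 for chaperone and -0.24 for mitochondrial ribosomal genes. Length centring gave Toledo medians of -0.070 for members, 0.037 for alpha, 0.038 for non-ATPase, -0.20 for constitutive beta, -0.58 for immunoproteasome, -0.044 for ATPase, -0.21 for chaperone and -0.17 for mitochondrial ribosomal genes. In SU-DHL-5 it gave -0.081 for members, -0.082 for mitochondrial ribosomal genes, -0.10 for constitutive beta and -0.19 for chaperone genes. Summed transcripts gave -0.28 for chaperone genes in Toledo.

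Library 1 alone gave SU-DHL-5 medians of -0.25 for constitutive beta, -0.83 for immunoproteasome, -0.29 for ATPase and 0.072 for cytosolic ribosomal genes, and -0.16 for members in Toledo. Library 2 alone gave SU-DHL-5 medians of -0.053 for members, -0.54 for immunoproteasome, -0.041 for ATPase, 0.10 for non-ATPase, 0.014 for other activators and -0.098 for cytosolic ribosomal genes. In Toledo it gave -0.16 for members, -0.27 for constitutive beta, -0.59 for immunoproteasome, -0.19 for ATPase and -0.11 for non-ATPase genes.

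The log2 change of PSMB8/PSMB5 in Toledo was -0.42 with library 1 and -0.68 with library 2, that of PSMB10/PSMB7 -0.53 and -0.29, and that of PSMB9/PSMB6 0.49 with library 2. In SU-DHL-5 PSMB9/PSMB6 changed by 0.094 and 0.12, and (PSME1+PSME2)/PSME3 by -0.049 and -0.28. The median of Toledo over SU-DHL-5 in DMSO was -0.27 with library 1, -0.26 with library 2 and -0.28 with scaling. Depth limits PSMA8 in SU-DHL-5, with 0 to 2 reads per library.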
